A study of Mus musculus with 30 samples.

Results

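The interferon-inducible GTPases are large GTP-binding proteins that cells make in response to interferon and place on the membranes of vacuoles that enclose microbes. They are described here by 10 mouse genes among the 54532 genes counted: the immunity-related GTPases (IRG) *Irgm1*, *Irgm2*, *Igtp*, *Iigp1*, *Tgtp1*, *Tgtp2* and *Ifi47*, and the guanylate-binding proteins (GBP) *Gbp2*, *Gbp3* and *Gbp7*. All 10 symbols were found, each at 1 Ensembl identifier. The genes were chosen on earlier results from these same libraries, and the values that chose them were not specified, so every difference between groups given for them below is a description, printed with its standard error (SE) and without a p-value.

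RNA was sequenced from murine erythroleukemia (MEL) cells, a virus-transformed erythroid precursor line whose DS19 subclone makes hemoglobin when treated with dimethyl sulfoxide (DMSO). WT cells and Abcb10-null cells were collected before DMSO (day 0) and on days 2 and 5 of culture with the agent at 1.5%, with 5 libraries per genotype and day (30 in all). *Abcb10* encodes a transporter of the inner mitochondrial membrane that erythroid cells need for heme synthesis. The Abcb10-null line was 1 clone, made with a lentivirus carrying CRISPR/Cas9, sorted for a fluorescent protein and grown from a single cell, so the loss of *Abcb10*, the vector and the history of the clone cannot be told apart. The labels number the 5 libraries of a group as biological replicates, without saying what was replicated.

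The libraries held between 9906783 and 20157768 counts. On each day, the highest *Abcb10* level of the Abcb10-null cells was below the lowest of the WT cells, at 67.2 to 79.4 counts per 1000000 (CPM) against 112 to 126 at day 0 and at 177 to 237 against 1152 to 1264 at day 5. The summed level of 12 erythroid markers was 2193 to 2424 CPM in WT and 2323 to 2504 CPM in Abcb10-null libraries at day 0, and 10449 to 22261 against 4975 to 6370 CPM at day 5. At day 5, library 4 of the Abcb10-null cells and libraries 2 and 5 of the WT cells had the lowest median correlations with their own group, at 0.953, 0.958 and 0.965. Without all 3, every gene but *Tgtp1* was tested at day 5. *Gbp7* and *Tgtp2* were called higher and *Igtp* and *Ifi47* lower. With all libraries 3 of 7 tested were, *Gbp7* higher and *Irgm2* and *Igtp* lower, beside 19.8% of all genes called higher and 17.8% lower. *Tgtp2*, with at most 1 count per WT library, was too low to be tested with all libraries. Without the 3 it passed the filter on low counts only through the Abcb10-null libraries. The share of all genes called without the 3 libraries is not given, so these calls are not compared.

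As background, interferon gamma signals through a receptor that activates the kinases JAK1 and JAK2 and acts on genes through gamma-activated sites (GAS) in DNA. Type I interferons signal through another receptor that uses JAK1 and TYK2 and a complex with STAT2 and IRF9, which binds the interferon-stimulated response element (ISRE). Among the immunity-related GTPases, *Irgm1*, *Irgm2* and *Igtp* encode the regulatory proteins that sit on the cell's own membranes and hold back the effector proteins. *Iigp1*, *Tgtp1*, *Tgtp2* and *Ifi47* encode proteins of the effector kind, and the GBPs gather on the vacuoles and on the bacteria set free from them.

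The promoters are shown because 8 of the 9 genes with a RefSeq promoter window (250 bases before to 50 after the start site, GRCm38.p6) held the ISRE core, GAAA and again GAAA with any 2 bases between them, on either strand, where 3.44% of all 32851 windows did. The stretches below are on the gene's strand, 5′ to 3′, and end before the start site. The core is in capitals, and it appears as its reverse complement in the 3 GBP genes.
Gbp7, chr3:142530263-142530312, plus strand: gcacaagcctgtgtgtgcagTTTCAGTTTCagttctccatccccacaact
Gbp3, chr3:142559979-142560028, plus strand: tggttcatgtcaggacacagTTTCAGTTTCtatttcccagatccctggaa
Gbp2, chr3:142620584-142620633, plus strand: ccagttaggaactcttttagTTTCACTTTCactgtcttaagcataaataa
Irgm1, chr11:48871421-48871470, minus strand: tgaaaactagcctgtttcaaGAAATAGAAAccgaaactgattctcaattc
Tgtp1, chr11:48992294-48992343, minus strand: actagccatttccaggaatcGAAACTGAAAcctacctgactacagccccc
Tgtp2, chr11:49064253-49064302, minus strand: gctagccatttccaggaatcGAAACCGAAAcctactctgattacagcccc
Igtp, chr11:58199502-58199551, plus strand: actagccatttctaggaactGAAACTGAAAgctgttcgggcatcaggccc
Irgm2, chr11:58214893-58214942, plus strand: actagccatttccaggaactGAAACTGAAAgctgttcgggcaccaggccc
The first base of the core lay 30 to 77 bases from the start site. *Gbp3* and *Irgm1* each held a second core that overlaps the one shown. The GAS letters TTCNNNGAA, which read the same on both strands, were in the windows of *Gbp7*, *Tgtp1*, *Tgtp2*, *Igtp* and *Irgm2* (5 of 9 genes) and in 8.30% of all windows, and in *Tgtp1*, *Tgtp2*, *Igtp* and *Irgm2* they ended 2 bases before the ISRE core shown. The window of *Ifi47* held neither set of letters. A match of letters is a description and not a binding site.

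Some counts of near-identical genes are uncertain. Of the 51-base stretches of *Tgtp1*, 81.1% also occur in another gene, and of those of *Tgtp2* 86.4%, nearly all in each other. The share was 11.6% for *Igtp* and 7.69% for *Irgm2*, 12.6% for *Gbp7*, most of it in a pseudogene, and under 5% for the other 5 genes. *Tgtp1* and *Tgtp2* are therefore also given as a sum.

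Most of the genes lie in clusters (GRCm38). On chromosome 11, *Irgm1* (48861968 to 48871683), *Tgtp1* (48985327 to 48994172) and *Tgtp2* (49057194 to 49064206), all on the minus strand, neighbour *Ifi47* (49076587 to 49096974, plus strand). *Igtp* (58199556 to 58207591) and *Irgm2* (58199618 to 58222782) overlap on the plus strand of the same chromosome and share 162 exonic bases. *Gbp7* (142530342 to 142550149), *Gbp3* (142560026 to 142573209) and *Gbp2* (142620602 to 142638008) follow one another on the plus strand of chromosome 3, and *Iigp1* is on chromosome 18 (60376027 to 60392634, plus strand).

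At day 0, before DMSO, the transcripts of all 10 genes were higher in Abcb10-null than in WT cells, by 1.19 on the log2 scale for *Irgm2* to 5.97 for *Tgtp2*, with *Tgtp1* absent from every WT library. Their summed level was 362 ± 10.01 CPM in Abcb10-null cells and 66.9 ± 6.50 CPM in WT cells (mean ± SD, n = 5 libraries each here and below). In 9 of the 10 genes the lowest Abcb10-null value exceeded the highest WT value, and *Irgm2* was the exception. These counts stand against 19.7% of all 12912 genes tested called higher and 16.2% called lower at an adjusted p under 0.05 (edgeR, quasi-likelihood test), and against 13.7% of all genes separated in the same way. As the genes may have been chosen by this difference, nothing is read from that contrast. In RNA from whole cultures, a change in the share of cells that express a gene and a change in RNA per cell cannot be told apart. The median log2 difference of the 10 genes was 2.82 (2.52 with *Tgtp1* at its lower bound), and that of all genes tested was -0.0019.

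**Figure D1:**
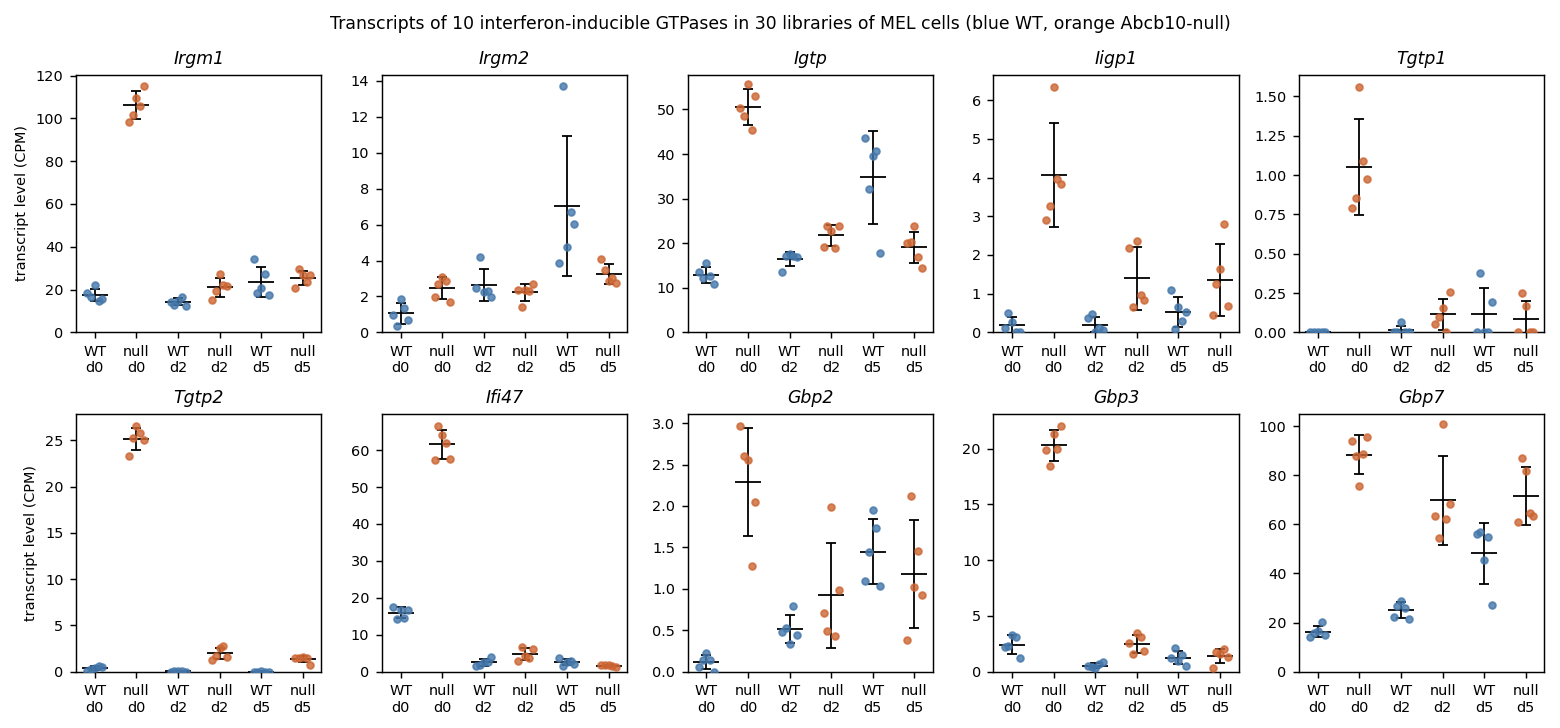
Transcript level in CPM (linear axes from 0, a different scale in each panel) of the 10 GTPase genes in WT (blue) and Abcb10-null (orange) MEL cells at days 0, 2 and 5 (d0, d2, d5). Points are libraries and bars are the mean ± SD of 5. At day 0 the Abcb10-null libraries of *Irgm1* lie at 98.4 to 115 CPM against 14.7 to 22.2 CPM in WT, and by day 5 the 2 genotypes overlap for that gene.

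Among the regulatory GTPases, *Irgm1*, whose product also takes part in autophagy and mitochondrial homeostasis, measured 98.4, 102, 109, 106 and 115 CPM in the 5 Abcb10-null libraries at day 0. The WT libraries gave 18.5, 16.6, 22.2, 14.7 and 15.4 CPM, so the lowest Abcb10-null library was more than 4 times the highest WT library, and the log2 difference was 2.59 (SE 0.09). *Igtp*, which encodes Irgm3, a regulator found on the endoplasmic reticulum and lipid droplets, measured 50.2, 48.5, 55.6, 45.4 and 53.0 CPM against 13.5, 12.1, 15.6, 12.6 and 10.9 CPM in WT, with a log2 difference of 1.96 (SE 0.09). Again no library of one genotype reached the other. *Irgm2*, the Golgi-associated regulator, was at 1.96, 2.71, 3.06, 2.88 and 1.69 CPM against 0.963, 0.365, 1.89, 1.38 and 0.685 CPM. One Abcb10-null library of *Irgm2* lay below the highest WT library, and the log2 difference of 1.19 (SE 0.34) was the smallest of the 10.

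Among the effector GTPases, *Tgtp2*, which encodes a T-cell-specific GTPase that binds the vacuole of *Toxoplasma*, had 2, 4, 8, 8 and 9 counts in the WT libraries and 440, 503, 477, 403 and 489 counts in the Abcb10-null libraries at day 0. On the CPM scale these were 0.398 ± 0.196 and 25.2 ± 1.21, a log2 difference of 5.97 (SE 0.26). *Tgtp1* had 0 counts in all 5 WT libraries and 15, 17, 28, 17 and 19 counts in the Abcb10-null libraries, which is at least 5.49-fold higher against a floor of 3 counts per library. The sum of both genes was 26.2 ± 1.47 CPM against 0.398 ± 0.196 CPM and did not overlap. The sum does not depend on how reads were split between the near-identical copies. It does depend on whether reads shared by both were counted, which is not known. *Iigp1*, which encodes Irga6, an effector that coats parasite vacuoles, had between 0 and 7 counts per WT library and 55 to 114 per Abcb10-null library, with a log2 difference of 4.46 (SE 0.59). *Ifi47*, which encodes Irgd, was already abundant in WT cells at 17.5, 14.2, 16.8, 14.4 and 16.8 CPM. Its Abcb10-null libraries measured 57.3, 66.5, 64.1, 62.0 and 57.6 CPM, a log2 difference of 1.94 (SE 0.08), and the groups did not overlap.

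All 3 guanylate-binding proteins were higher as well. *Gbp7*, whose product recruits the NADPH oxidase and the autophagy machinery to bacterial vacuoles, measured 94.1, 87.9, 75.8, 88.5 and 95.7 CPM in Abcb10-null libraries. WT libraries gave 14.1, 15.9, 16.6, 20.1 and 15.1 CPM, and the log2 difference was 2.43 (SE 0.09). For *Gbp3* the values were 19.9, 18.4, 21.3, 19.9 and 22 CPM against 2.21, 2.26, 3.33, 3.12 and 1.24 CPM, a log2 difference of 3.05 (SE 0.18). *Gbp2*, which helps to break open the vacuole and the bacterium within it, had 0 to 4 counts per WT library and 20 to 56 per Abcb10-null library (log2 difference 4.25, SE 0.58). No WT library at day 0 held more than 9 counts of *Iigp1*, *Tgtp1*, *Tgtp2* or *Gbp2*, so these 4 genes passed the filter on low counts through the Abcb10-null libraries.

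The order of the levels per length (CPM per kilobase of exon) was led by *Ifi47* at 6.45 ± 0.61 and *Igtp* at 6.40 ± 0.88 in WT cells at day 0, whose ranges overlapped, followed by *Irgm1* at 3.01 and *Gbp7* at 2.91, which also overlapped. *Gbp3* stood at 0.745 and *Irgm2* at 0.286, and each of the remaining genes overlapped with its neighbour in the order. In Abcb10-null cells at day 0 the same 4 genes led, at 25 for *Igtp*, 24.9 for *Ifi47*, 18.3 for *Irgm1* and 15.7 for *Gbp7* CPM per kilobase. *Tgtp2* came next, in place 5, at 8.57 ± 0.41, above the range of *Gbp3* at 6.22 ± 0.43 and all genes below it, whereas it was in place 7 in WT cells. *Irgm2*, in place 6 in WT cells, was in place 9 at 0.667 CPM per kilobase, with a range that overlapped those of both its neighbours, *Iigp1* and *Tgtp1*. The places of *Tgtp1* and *Tgtp2* depend on how reads shared by these near-identical copies were counted, which is not known.

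**Figure D2:**
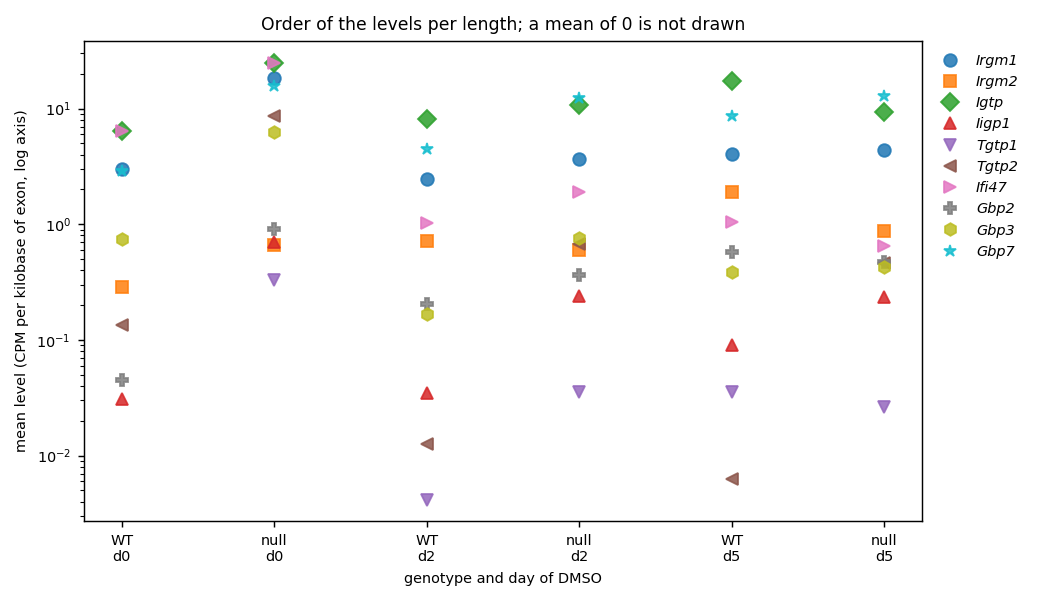
Mean level per length of the 10 genes in each genotype and day (CPM per kilobase of exon, log axis, mean of 5 libraries, error bars not drawn). *Igtp* is first or second in all 6 groups, and *Ifi47* moves from 6.45 to 1.04 CPM per kilobase between day 0 and day 2 in WT cells.

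After 2 days of DMSO, of the 9 genes tested, 5 were higher in Abcb10-null cells and none was lower, against 14.9% of all genes called higher and 16.9% called lower. The 5 were *Tgtp2* (5.47, SE 0.79), *Iigp1* (2.67, SE 0.70), *Gbp3* (2.12, SE 0.37), *Gbp7* (1.43, SE 0.17) and *Irgm1* (0.52, SE 0.17), all as log2 differences. *Tgtp2* and *Iigp1*, with at most 1 and 8 counts per WT library, passed the filter on low counts through the Abcb10-null libraries. *Gbp3* did as well, with 5 to 15 counts per WT library and 32 to 66 per Abcb10-null library. *Irgm1* was at 21.1 ± 4.44 CPM in Abcb10-null cells and 14.2 ± 1.64 CPM in WT cells, with 1 Abcb10-null library inside the WT range. Its call was lost without library 1, 2 or 5 of the WT cells or 3, 4 or 5 of the Abcb10-null cells (0.42 to 0.53), with the genes of at least 1 count all tested (0.55) and with the replicate block (0.50).

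At day 2, *Gbp7* measured 63.3, 54.3, 101, 62.0 and 68.3 CPM in Abcb10-null libraries and 22.1, 26.7, 29, 25.9 and 21.4 CPM in WT libraries. *Gbp3* measured 2.56, 1.59, 3.46, 3.10 and 1.81 CPM against 0.482, 0.414, 0.334, 0.671 and 0.830 CPM. In both genes the genotypes did not overlap, and the same held for *Igtp*, *Iigp1* and *Tgtp2*, 5 genes in all, against 8.01% of the genes tested. *Tgtp2* had 183 counts in the 5 Abcb10-null libraries together and 3 in the 5 WT libraries, a ratio of levels of 54.2 with an exact 95% interval of 18.3 to 265, which covers counting error only. *Tgtp1*, with 11 counts against 1, was too low to be tested (ratio 9.78, interval 1.42 to 421).

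The other 4 genes did not pass the test at day 2. *Igtp* differed by 0.36 (SE 0.14), *Gbp2* by 0.78 (SE 0.48), *Irgm2* by -0.31 (SE 0.30) and *Ifi47* by 0.84 (SE 0.33) on the log2 scale. *Ifi47* was called higher with DESeq2 (0.85), with all 30 libraries in one fit (0.88) and without library 5 of the WT cells (1.06), and *Igtp* with all 30 libraries in one fit (0.41).

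At day 5, of the 7 genes tested, *Gbp7* was called higher in Abcb10-null cells (0.56, SE 0.19) and *Irgm2* (-1.12, SE 0.33) and *Igtp* (-0.87, SE 0.22) were called lower, against 19.8% of all genes called higher and 17.8% called lower. *Igtp* measured 20.1, 20.2, 23.8, 16.8 and 14.5 CPM in Abcb10-null libraries and 43.7, 32.2, 39.6, 40.7 and 17.8 CPM in WT libraries. The lowest WT library lay within the Abcb10-null range and the other 4 lay above it. *Irgm2* measured 4.10, 3.49, 2.88, 3.01 and 2.78 CPM against 3.86, 13.7, 4.73, 6.73 and 6.05 CPM, with WT library 2 far above the rest and the groups overlapping in 1 library each. Without that library the difference in *Irgm2* was -0.73 and still called. Without WT libraries 2 and 5 and Abcb10-null library 4 together it was -0.66 and not called, while *Igtp* (-1.10) and *Ifi47* (-0.94) were called lower and *Gbp7* (0.46) and *Tgtp2* (5.25) higher. In that fit *Tgtp2* passed the filter on low counts through the Abcb10-null libraries, and the share of all genes called is not given.

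*Gbp7* at day 5 was at 60.9, 87.0, 81.7, 64.5 and 63.5 CPM in Abcb10-null libraries and at 56.1, 57.1, 45.6, 54.9 and 27.2 CPM in WT libraries, without overlap. Its call was lost when any 1 of 4 libraries was left out: library 3 or 4 of the WT cells (0.54 and 0.59) or library 2 or 3 of the Abcb10-null cells (0.46 and 0.48). *Tgtp2* was the other gene whose groups did not overlap, which makes 2 genes against 13.5% of the genes tested, with all Abcb10-null values above the WT values. It was too low to be tested, with 100 counts in the Abcb10-null libraries and 1 in the WT libraries (ratio of levels 92.8, exact 95% interval 16.3 to 3703). *Irgm1* (0.10, SE 0.19), *Gbp3* (0.13, SE 0.50), *Gbp2* (-0.31, SE 0.44) and *Ifi47* (-0.69, SE 0.32) did not pass the test, though *Ifi47* was also called with all 30 libraries in one fit (-0.67). *Iigp1* and *Tgtp1* were not tested, and their groups overlapped at 1.36 ± 0.930 against 0.525 ± 0.386 CPM and 0.0837 ± 0.118 against 0.115 ± 0.170 CPM.

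**Figure D3:**
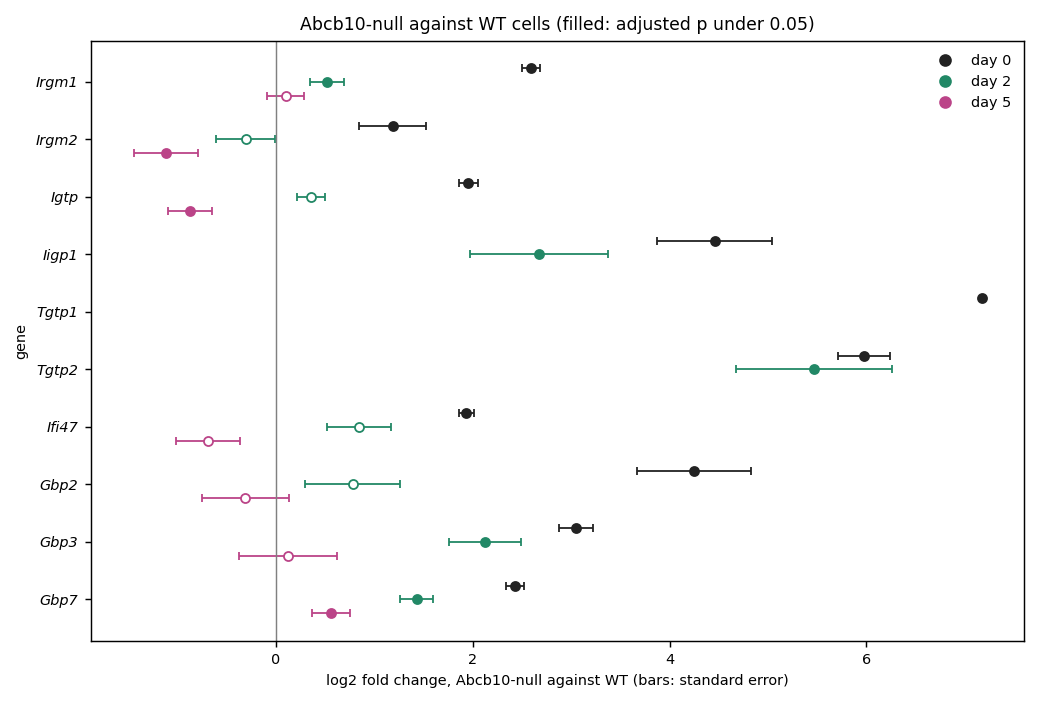
Difference between Abcb10-null and WT cells (log2 fold change, points) with its standard error (bars) for each gene at days 0, 2 and 5. Filled points passed an adjusted p under 0.05 over all genes and genes not tested are left out. All 10 points of day 0 lie right of 0, while at day 5 *Igtp* and *Irgm2* lie left of 0. The value of *Tgtp1*, which has no bar because WT cells had 0 counts, depends on the fit's prior count.

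In Abcb10-null cells the summed level of the 10 genes went from 362 ± 10.01 through 126 ± 24.3 to 126 ± 18.1 CPM over days 0, 2 and 5, and in WT cells from 66.9 ± 6.50 through 62.2 ± 5.13 to 119.6 ± 28 CPM. The sums of the 2 genotypes overlapped at day 5 (110 to 149 against 73.1 to 145 CPM) and not at day 0 (352 to 377 against 60.6 to 77.4 CPM).

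In WT cells between day 0 and day 2, *Irgm2* (1.31, SE 0.38), *Gbp7* (0.61, SE 0.13) and *Igtp* (0.34, SE 0.13) were called higher and *Ifi47* (-2.63, SE 0.22) and *Gbp3* (-2.13, SE 0.35) lower, of 6 genes tested, where 31.5% of all genes were called higher and 30.7% lower. *Irgm1* differed by -0.30 (SE 0.14) and did not pass, but was called lower without library 4 of either day (-0.37 each). *Ifi47* went from 16 ± 1.51 to 2.56 ± 0.962 CPM, with no overlap. *Gbp3* had 20 to 60 counts per library at day 0 and 5 to 15 at day 2. It passed the filter on low counts through the day 0 libraries. The call of *Igtp* was lost without library 1, 2, 4 or 5 of day 0 or library 4 or 5 of day 2 (0.27 to 0.34), and under 3 other settings, of which the replicate block was 1 (0.34).

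By day 5, 4 of 7 genes tested in WT cells were above day 0 and 2 were below it, beside 36.5% and 34.7% of all genes. *Gbp2* was up by 3.57 (SE 0.58), *Irgm2* by 2.71 (SE 0.43), *Gbp7* by 1.56 (SE 0.19) and *Igtp* by 1.42 (SE 0.21) on the log2 scale, and in these 4 every library of day 5 exceeded every library of day 0. *Gbp2* rose from 0 to 4 counts per library to 15 to 24 counts, so it passed the filter on low counts through the day 5 libraries. *Ifi47* stayed low at 2.6 ± 0.873 CPM (-2.62, SE 0.21). *Gbp3* was at 1.27 ± 0.610 CPM (-0.94, SE 0.38), a call that was lost with DESeq2 (-0.95) and without any library but 5 of day 0 or 2 of day 5 (-1.01 to -0.73), and *Irgm1* differed by 0.44 (SE 0.19) without passing. *Irgm1* was called higher when only genes of 10 counts or more in each library were tested (0.46), with all 30 libraries in one fit (0.44) and without library 3 of day 0 (0.50) or library 2 (0.51) or 5 (0.52) of day 5.

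In Abcb10-null cells nearly all of the genes fell. From day 0 to day 2, 8 of 10 were called lower and none higher, where 20.1% of all genes were called lower and 23.1% higher. The largest decreases were those of *Ifi47* (-3.66, SE 0.20), *Tgtp2* (-3.64, SE 0.18), *Tgtp1* (-3.07, SE 0.57) and *Gbp3* (-2.99, SE 0.19). *Tgtp1* had 0 to 5 counts per library at day 2 and 0 to 4 at day 5. It passed the filter on low counts through the day 0 libraries in both comparisons. *Irgm1* went from 106 ± 6.61 to 21.1 ± 4.44 CPM (-2.30, SE 0.13). *Iigp1* (-1.51, SE 0.37), *Gbp2* (-1.28, SE 0.41) and *Igtp* (-1.19, SE 0.11) were also lower, that of *Gbp2* not without library 1 (-1.17) or 2 (-1.22) of day 0, and *Gbp7* (-0.31, SE 0.14) and *Irgm2* (-0.11, SE 0.26) did not pass. *Gbp7* was called lower without library 3 of day 2 (-0.47).

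At day 5, 9 of 10 genes were below their day 0 level in Abcb10-null cells, against 33.3% of all genes called lower and 33.9% called higher. *Ifi47* had reached 1.77, 1.93, 1.75, 1.45 and 1.157 CPM, with a log2 difference of -5.22 (SE 0.14), the largest of the family. The difference was -4.18 (SE 0.17) for *Tgtp2*, -3.87 (SE 0.27) for *Gbp3*, -3.36 (SE 0.76) for *Tgtp1*, -2.05 (SE 0.10) for *Irgm1*, -1.61 (SE 0.39) for *Iigp1* and -1.39 (SE 0.12) for *Igtp*. The decreases of *Gbp2* (-0.96, SE 0.40) and *Gbp7* (-0.30, SE 0.11) were smaller. The call of *Gbp2* was lost without library 1, 2, 3 or 5 of day 0 or 1, 3 or 5 of day 5 (-0.73 to -1.01), with DESeq2 (-0.97), with all 30 libraries in one fit (-0.96) and with the replicate block (-1.04). That of *Gbp7* was lost without library 1 or 5 of day 0 or 1 or 4 of day 5 (-0.24 to -0.28) and with all 30 libraries in one fit (-0.30). *Irgm2* was at 3.25 ± 0.548 CPM against 2.46 ± 0.601 CPM at day 0 (0.41, SE 0.25, not called).

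**Figure D4:**
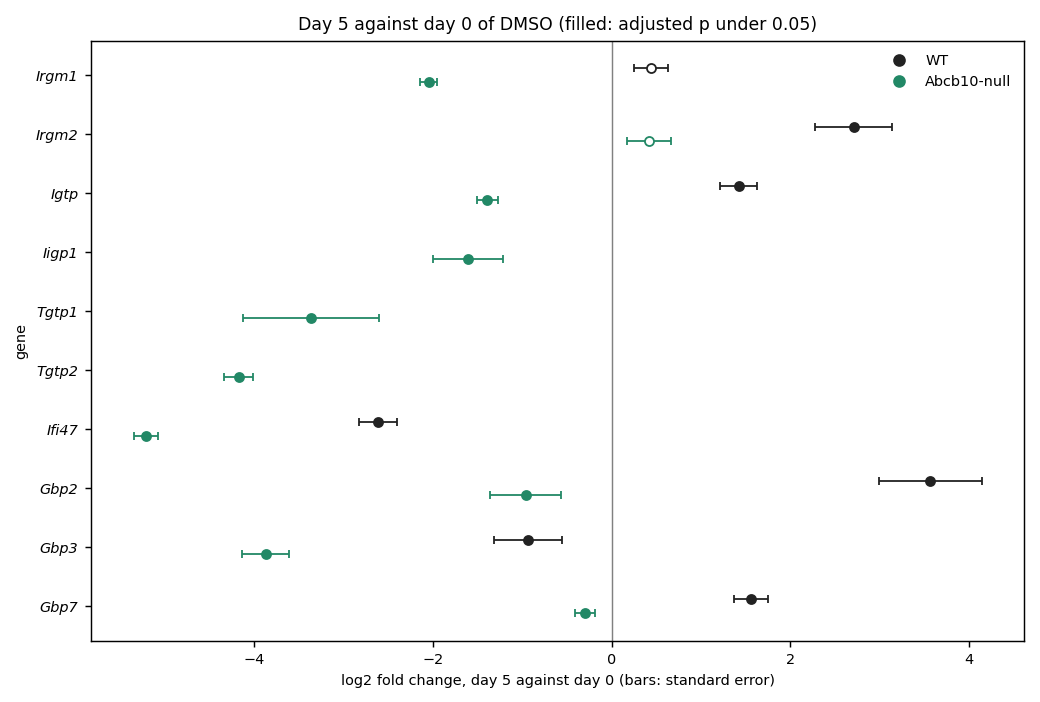
Difference between day 5 and day 0 (log2 fold change, points) with its standard error (bars) in WT (black) and Abcb10-null (green) cells. Filled points passed an adjusted p under 0.05, and genes not tested in a genotype have no point. *Igtp* lies at 1.42 in WT and -1.39 in Abcb10-null cells. *Gbp2* lies at 3.57 and -0.96 and *Gbp7* at 1.56 and -0.30, and the calls of these last values were lost under other settings.

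The difference between the 2 time courses was fitted as an interaction of genotype and day. Between day 0 and day 2 the change in Abcb10-null cells was called lower than that in WT cells for 6 of 10 genes (*Irgm1*, *Irgm2*, *Igtp*, *Ifi47*, *Gbp2* and *Gbp7*), beside 10.8% of all genes called lower and 12% called higher. Between day 0 and day 5 it was called lower for 9 of 10, beside 14.7% lower and 16.8% higher. *Igtp* gave -2.81 (SE 0.25), *Gbp2* -4.53 (SE 0.73), *Irgm1* -2.47 (SE 0.21) and *Ifi47* -2.59 (SE 0.24) on the log2 scale. That of *Irgm2* between day 0 and day 2 (-1.44, SE 0.46) was not called without library 3 of the Abcb10-null cells at day 0 (-1.36) or library 2 of the WT cells at day 2 (-1.25). *Tgtp2* was the exception at day 5, at -0.05 (SE 1.31), as it fell in WT cells too, from 31 counts over the 5 libraries at day 0 to 1 at day 5. These fits share their day 0 libraries with the comparisons at day 0, so a gene that is high in Abcb10-null cells at day 0 enters both.

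The 5 other genes whose log2 CPM was most like the mean profile of the 10 over all 30 libraries, by Pearson correlation among 12143 genes, were *Xaf1* (r = 0.970), *Rsad2* (0.956), *Parp9* (0.952), *Irf7* (0.951) and *Samd9l* (0.946). Over the 15 WT libraries alone r was 0.677 (*Samd9l*) to 0.886 (*Xaf1*), and over the 15 Abcb10-null libraries it was 0.958 to 0.976. Of the 45 pairs among the 10 genes, 21 correlated negatively in WT cells (median 0.224) and 9 in Abcb10-null cells (median 0.731). The libraries share days, clone and depth, and these values are a description.

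Other members of both GTPase families and the related *Mx* genes were mostly not detectable at this depth. Of 27 such genes listed, 25 were in the table and 6 were tested at day 0, of which 3 were higher in Abcb10-null cells and none lower, beside 19.7% and 16.2% of all genes. *9930111J21Rik2*, a further IRG gene, was at 3.15 ± 0.622 CPM against 0.118 ± 0.0868 CPM (log2 difference 4.57, SE 0.51). It had 0 to 4 counts per WT library and 39 to 71 per Abcb10-null library, so it passed the filter on low counts through the Abcb10-null libraries. *Mx2*, a dynamin-like antiviral GTPase, differed by 3.99 (SE 0.23) and *Gbp9* by 3.10 (SE 0.25). *Mx1* (0.34, SE 0.31) did not pass. At day 2, *Gbp9* (1.88, SE 0.34) and *Mx2* (1.45, SE 0.44) were higher and *Irgq* (-0.69, SE 0.24), a member not known to be induced by interferon, was lower, of 5 tested, beside 14.9% and 16.9% of all genes. At day 5, *Gbp9* was higher (0.87, SE 0.30) and *Gbp6* (-1.98, SE 0.53) and *Irgq* (-0.78, SE 0.21) were lower, of 6 tested, beside 19.8% and 17.8% of all genes. The call of *Irgq* at day 2 was lost without WT library 1, 2, 4 or 5 or Abcb10-null library 1, 4 or 5 (-0.54 to -0.74), and that of *Mx2* at day 2 without WT library 1, 3, 4 or 5 or Abcb10-null library 1 or 3 (1.11 to 1.43). The call of *Gbp9* at day 5 was lost without WT library 1, 3, 4 or 5 or Abcb10-null library 1, 2 or 4 (0.71 to 0.92) and with all genes of at least 1 count tested (0.82).

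Of the interferon genes, 5 were looked at. These, *Ifng*, *Ifnb1*, *Ifna4*, *Ifnl2* and *Ifnl3*, had at most 4 counts in any of the 30 libraries, and over the 10 libraries of day 0 the only counts were 2 of *Ifnb1* in WT and 1 in Abcb10-null cells. Of the 11 ligand and receptor genes listed, 5 were tested at each day. *Ifngr1*, the ligand-binding chain of the interferon gamma receptor, was higher in Abcb10-null cells at day 0 (113 ± 2.69 against 70.2 ± 1.73 CPM, log2 difference 0.67, SE 0.06), day 2 (0.55, SE 0.13) and day 5 (0.71, SE 0.12). *Il10rb*, a chain of the lambda interferon receptor, was higher at day 0 (0.35, SE 0.11) and day 5 (1.36, SE 0.20), and *Ifnar2* at day 5 (0.55, SE 0.18). The receptor gene *Ifnlr1* had at most 1 count per library at day 0 and at most 11 in any library, and was not tested. At day 0, 2 of the 5 were called higher (19.7% of all genes), 1 was at day 2 (14.9%) and 3 were at day 5 (19.8%), and none of the 5 was called lower at any day. The call of *Il10rb* at day 0 was lost without WT library 5 (0.28) and with all 30 libraries in one fit (0.36), and that of *Ifnar2* when any library other than WT library 5 was left out (0.46 to 0.56).

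Of the kinases and transcription factors downstream of these receptors, 5 of 8 tested were higher in Abcb10-null cells at day 0 and none was lower, beside 19.7% and 16.2% of all genes. *Irf7*, an interferon regulatory factor that is itself induced by interferon, was at 62.0 ± 13 against 2.24 ± 0.567 CPM (log2 difference 4.77, SE 0.19). *Irf9* differed by 1.80 (SE 0.09) and *Irf1* by 0.94 (SE 0.13). The others were *Stat2* (0.89, SE 0.12) and *Jak2* (0.49, SE 0.06). At day 2, *Irf7* was still higher (0.92, SE 0.28), though not without WT library 1 (0.78) or Abcb10-null library 3 (0.68) or 4 (0.90), and *Irf2* (-1.25, SE 0.26) was lower, beside 14.9% and 16.9% of all genes. At day 5, *Jak2* (-0.37, SE 0.10) was lower and none was higher, beside 17.8% and 19.8%, and its call was lost with all genes of at least 1 count tested (-0.40).

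Of the 6 inhibitors of the pathway, 5 were tested at day 0. Of these 2 were higher and none lower, beside 19.7% and 16.2% of all genes. At day 2, 3 of 6 were higher and 1 lower, beside 14.9% and 16.9%. At day 5, 2 of 6 were higher and 2 lower, beside 19.8% and 17.8%. *Usp18*, which restrains signalling from the type I receptor, was at 70.4 ± 8.8 against 4.07 ± 0.39 CPM at day 0 (log2 difference 4.11, SE 0.11). It remained higher at day 2 (2.26, SE 0.39) and day 5 (1.07, SE 0.34), the latter not without library 2 or 3 of either genotype (0.82 to 0.97). *Ptpn2*, a phosphatase that acts on JAK1, was higher at all 3 days (0.21, 0.93 and 0.60), with its call at day 0 lost without library 5 of the WT cells or library 2 or 4 of the Abcb10-null cells (0.13 to 0.21) and with all 30 libraries in one fit (0.21). *Socs3*, which blocks cytokine receptors, was lower at day 2 (-1.43, SE 0.22) and day 5 (-1.67, SE 0.19). *Socs1* was higher at day 2 (1.48), a call lost without WT library 2, 3, 4 or 5 or Abcb10-null library 1, 3 or 4 (1.27 to 1.59). *Pias1* was lower at day 5 (-0.47). That call was lost with the replicate block (-0.44) and without WT library 1, 2, 3 or 4 or Abcb10-null library 2, 3, 4 or 5 (-0.36 to -0.50).

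**Figure D5:**
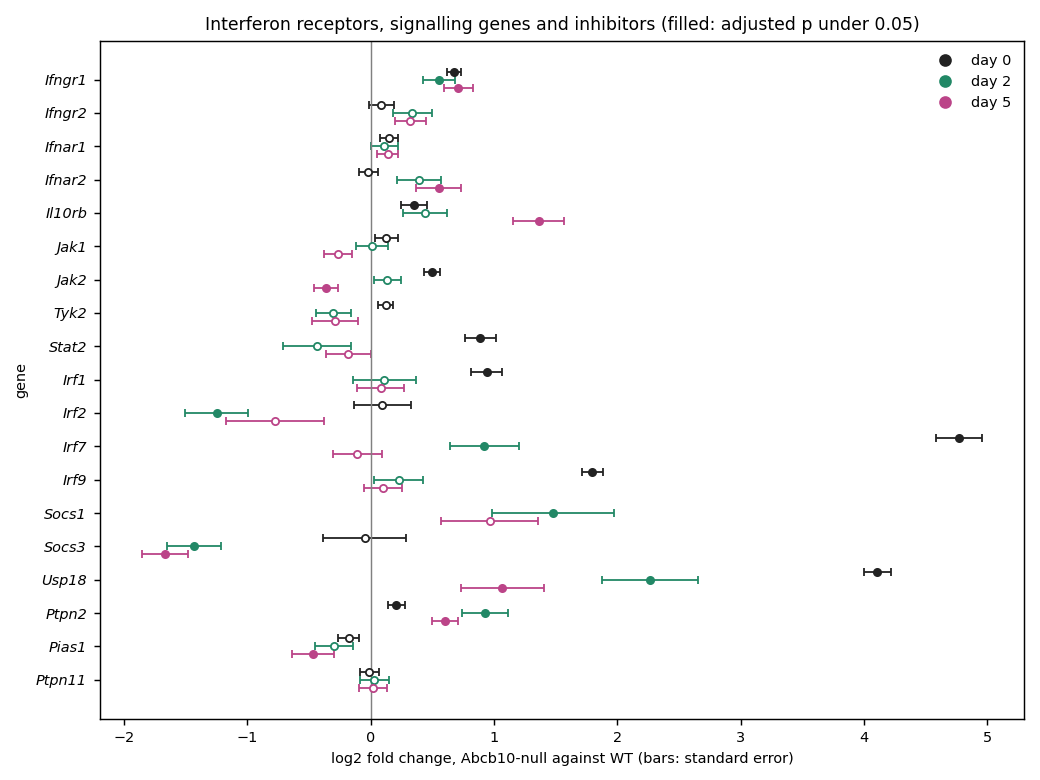
Difference between Abcb10-null and WT cells (log2 fold change, points) with its standard error (bars) for interferon receptor chains, kinases, transcription factors and inhibitors at days 0, 2 and 5. Filled points passed an adjusted p under 0.05. *Irf7* and *Usp18* lie at 4.77 and 4.11 at day 0, and *Socs3* lies left of 0 at days 2 and 5.

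Of the genes whose products work with the GTPases, mainly of the autophagy conjugation machinery and the inflammasome, 16 were tested at day 0. Of these 5 were higher and 2 lower, beside 19.7% and 16.2% of all genes, led by *Trim21*, an antibody receptor in the cytosol (1.57, SE 0.13). *Sqstm1* (0.37, SE 0.05) and *Gsdmd* (0.35, SE 0.08) followed. With all 30 libraries in one fit all calls of this list but that of *Trim21* were lost. *Aim2*, a sensor of cytosolic DNA that acts after GBPs have opened bacteria, was higher at day 2 (0.98, SE 0.16) and day 5 (1.11, SE 0.19). In all, 4 of 16 were higher and 1 lower at day 2, beside 14.9% and 16.9% of all genes, and 5 of 17 were higher and 2 lower at day 5, beside 19.8% and 17.8%.

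Markers of other cells were measured beside these results. The 8 macrophage and monocyte markers summed to 19.3 to 22.8 CPM in WT and 17.8 to 25 CPM in Abcb10-null libraries at day 0, and *Adgre1* was at 0 in all WT libraries. At day 2 the sums were 4.04 to 7.27 and 8.32 to 56.6 CPM, and at day 5 they were 2.75 to 7.08 and 21.5 to 50.04 CPM. *Fcgr1* made up most of the sums in Abcb10-null cells, at a mean of 28.6 CPM at day 2 and 29.2 CPM at day 5. *Itgam* stayed under 0.52 CPM and *Adgre1* under 1.21 CPM in every library of these days. The other markers of that list are not given singly. The markers of T and NK cells, B cells, dendritic cells, fibroblasts and endothelium each summed to at most 8.20 CPM in every library. The part of such cells, and of the lower erythroid marker level at day 5, in the results was not tested.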

How the data were processed

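RNA of MEL cells was sequenced by the authors as paired 51-base reads from stranded libraries depleted of ribosomal and globin RNA. Reads were trimmed, aligned to GRCm38 with STAR 2.6.1b and assigned to Ensembl genes with featureCounts 1.6.3, per the labels and the study's methods. The strand and multimapping settings are not given in the sources used here. The deposited values are raw counts per gene for 30 libraries, neither normalised nor filtered, with totals of 9906783 to 20157768, and 9219 of 54532 genes had no count. Depth leaves a floor of 3 counts per library.

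Groups and replicate numbers came from the sample labels. The 10 genes and all lists were chosen with earlier results of these data known, so no p-value is printed for any of these genes and their differences are descriptions. Each of 9 comparisons was fitted over the whole table with edgeR 4.0.16 in R 4.3.3 (filterByExpr, TMM, glmQLFit, glmQLFTest, Benjamini-Hochberg adjustment, threshold 0.05), on the libraries of the groups compared. Standard errors are Wald errors of the contrast, scaled by the quasi-likelihood dispersion, and are not given where a group had no count. CPM used TMM-scaled totals of genes kept over the 6 groups, and exon lengths and positions came from GENCODE M21. From each list of other genes, up to 3 called genes of largest change per comparison of genotypes were named, or all where 5 or fewer were called; single genes given as not called were added after their values were seen, and 1 gene of the transcription factor list is not reported here. The likeness profile was the mean of the z-scored log2 CPM (prior count 2) of the 10 genes, compared with genes of mean at least 1 CPM. On simulated data for the day 0 comparison (12912 genes), 88% of 200 changed genes were recovered. Alternatives were DESeq2 1.42.0, its size factors in edgeR, 2 other filters, one fit of all libraries, a replicate block and leaving out each library. No pair of libraries of a group agreed within sampling noise (chi-square per degree of freedom of at least 6.42).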

Additional observations from a re-analysis of the deposited data

Results flagged for a closer look

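In a group of 5 libraries, the highest or lowest library lay apart from the rest by more than Dixon's 95% limit in 5 of 60 groups, where chance gives about 1 in 20 for continuous values. *Tgtp1* in WT cells at day 0, with 0 counts in every library, could not be checked. A single count among libraries with none always passes the limit, so that rate does not apply to such groups. Library 2 of WT cells at day 2 gave 4.20 CPM of *Irgm2*, with the next at 2.47 CPM, and library 1 of the same group gave 13.6 CPM of *Igtp*, with the next at 16.8 CPM. Single counts set library 3 of WT cells apart for *Tgtp1* at day 2 (0.0667 CPM) and for *Tgtp2* at day 5 (0.0928 CPM), as the other libraries had none. *Tgtp2* was at 0.771 CPM in library 5 of Abcb10-null cells at day 5, with the next at 1.45 CPM.

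The change with DMSO differed between the genotypes by edgeR's interaction term in 15 of 20 fits, all towards a lower change in Abcb10-null cells. Of all genes, 10.8% were called lower and 12% higher between days 0 and 2, and 14.7% and 16.8% between days 0 and 5. All these fits share the day 0 libraries, so they are not independent of each other. Between days 0 and 2 the interaction on the log2 scale was -2.02 for *Irgm1*, -1.44 for *Irgm2*, -1.55 for *Igtp*, -1.05 for *Ifi47*, -3.42 for *Gbp2* and -0.95 for *Gbp7*. Between days 0 and 5 it was -2.47 for *Irgm1*, -2.29 for *Irgm2*, -2.81 for *Igtp*, -3.10 for *Iigp1*, -2.59 for *Ifi47*, -4.53 for *Gbp2*, -2.92 for *Gbp3* and -1.85 for *Gbp7*. The value of *Tgtp1* at day 5, -7.35, depends on the prior count of the fit, since WT cells had no count at day 0. As the genes were chosen on results of these libraries, these values are a description.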

How the results depend on the processing

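The number of the 10 genes called was within 1.5 times the main number in 160 of 166 alternative fits. Testing only genes whose lowest library had 10 counts or more left fewer of them to test and gave 5 called at day 0, 2 at day 2, 3 for WT cells from day 0 to day 2, 5 for Abcb10-null cells from day 0 to day 5 and 4 for the interaction at day 5. Of all genes, that filter gave 2370 higher and 1962 lower of 11415 at day 0 and 1808 and 1821 of 11276 at day 2. For WT cells from day 0 to day 2 it gave 3710 and 3419 of 11192. The counts of all genes for the other comparisons are not given here. With all 30 libraries in one fit, 10 genes were tested at day 5 and 5 were called, 2 higher and 3 lower, beside 2979 higher and 2758 lower of all 14702 genes tested. No called value changed sign under any alternative run. The replicate numbers did not pair the libraries: over 75 pairs of the same number, deviations from the group means correlated at -0.26 to 0.43 (median -0.0145), with 8 over 0.1. With the replicate block 10 genes were called at day 0, 4 at day 2 and 3 at day 5. Of all genes, it gave 2328 higher and 1892 lower of 12912 at day 0 and 1682 and 2273 of 13053 at day 2. At day 5 it gave 2386 and 1992 of 12676. Leaving out library 5 of WT and library 4 of Abcb10-null cells at day 5 together left *Gbp7* called higher and *Igtp* and *Irgm2* lower. Leaving out WT library 2 as well gave the calls listed in the results. Both sets were chosen after seeing the data, and the share of all genes called is not given for either. Genes with a few counts per library (*Iigp1*, *Tgtp1*, *Tgtp2* in WT cells) are limited by depth.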
